A study of Mus musculus with 12 samples.

Results

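Glutathione S-transferases were followed in whole hearts of mice in which both corticosteroid receptors were targeted in cardiomyocytes. The set holds 10 genes, namely Gsta1, Gsta2, Gsta3 and Gsta4 of the alpha class, Gstm1 and Gstm2 of the mu class, Gstk1 (kappa), Gstp1 (pi), Gstt1 (theta) and Gsto1 (omega). They were chosen by their measured levels on these arrays, as genes higher at 2 months than at 1 month of age in each genotype, and every array probe carrying one of these names was taken. All 10 genes were on the array, on 13 of its 41174 transcript probes, and all 10 were among the 18258 genes that passed the filter on dim probes. Each of the 13 probes was well above background on all 12 arrays, so no member passed through a single group. The difference between the ages chose the genes and is given as a description, while the genotype comparisons were not used in the choice and were tested.

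Hearts came from male C57BL/6 mice in 4 groups of 3 animals: cardioGRMRdKO at 2 months, dflox at 2 months, cardioGRMRdKO at 1 month and dflox at 1 month. The cardioGRMRdKO mice carried floxed alleles of the glucocorticoid receptor (GR, Nr3c1) and the mineralocorticoid receptor (MR, Nr3c2) together with Cre recombinase driven by αMHC, a promoter of heart muscle cells. The dflox mice were littermates with both floxed alleles and without Cre. No group carried Cre without floxed alleles, so receptor loss and Cre itself cannot be told apart, and a whole heart also holds fibroblasts, vessel cells and others that αMHC-Cre does not reach. RNA of each heart was read on 1 one-colour Agilent array. A level below is the log2 signal relative to the 75th percentile of its array, so a level of 0 is that percentile, and levels of different probes are not set against each other because probes differ in brightness for the same amount of RNA.

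Glutathione S-transferases couple the tripeptide glutathione to electrophilic compounds such as lipid peroxidation products, drugs and quinones, which makes them more soluble and ready for export. The soluble enzymes fall into classes named by Greek letters, the kappa enzyme sits in mitochondria and peroxisomes, and an unrelated family of membrane enzymes (Mgst1 to Mgst3) carries out similar reactions. Several members, above all of the alpha, mu and pi classes, are known targets of the transcription factor Nrf2, which answers oxidative and electrophilic stress.

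Probes are shown first where the files pair them with more than 1 family member, because the signal of such a probe can hold RNA of both. The Gsta1 probe also lists a Gsta2 transcript, and the Gsta2 probe (mm7 chr9:78408171-78408230, minus strand) also lists a Gsta1 transcript. The files give no position for the Gsta1 probe, and both genes lie on chromosome 9. The 3′ part of the Gsta1 probe and the 5′ part of the Gsta2 probe are the same stretch, printed in capitals, of 28 bases with 27 matches. The one difference is T40A, with positions counted from 1 at the 5′ end of the Gsta1 probe and the Gsta1 base first.
Gsta1 probe: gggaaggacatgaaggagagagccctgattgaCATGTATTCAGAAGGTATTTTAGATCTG
Gsta2 probe: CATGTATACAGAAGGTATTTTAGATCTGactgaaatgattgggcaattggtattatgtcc
Values of Gsta1 and Gsta2 are therefore uncertain as to which of the 2 genes they report. Both are kept as separate genes in the counts and medians below, which are therefore not all independent. Gstp1 has 2 probes, and the brighter one (chr19:3930292-3930351, minus strand) also lists a transcript of its neighbour and near copy Gstp2, whereas the dimmer one (chr19:3930714-3931529, minus strand, the span in the file being longer than the probe) lists Gstp1 alone.
Gstp1 brighter probe: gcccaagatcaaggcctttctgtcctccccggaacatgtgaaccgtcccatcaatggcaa
Gstp1 dimmer probe: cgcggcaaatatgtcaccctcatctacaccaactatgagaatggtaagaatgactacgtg
The probes of the other members list transcripts of 1 family gene each. They lie on chromosome 1 for Gsta3 (21459782 to 21459841 and 21459685 to 21459744), 9 for Gsta4 (78241323 to 78242428), 3 for Gstm1 (107830550 to 107830609 and 107830934 to 107830993) and Gstm2 (107799992 to 107800051), 6 for Gstk1 (42193349 to 42193410), 10 for Gstt1 (75442599 to 75449763) and 19 for Gsto1 (47765135 to 47765194), all on mm7. Which exons or untranslated regions these are is not given, as no annotation of that build was used here. Probes were compared with each other but not with the transcripts of other family genes. Whether a probe that lists 1 gene also binds RNA of a close relative was thus not tested.

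Some facts of all 12 arrays bear on what follows. Between 63.7% and 71.9% of transcript spots per array were well above background, and 67 to 241 spots per array were marked as outliers by the scanner software and left out. This took 1 heart each from the values of Gstk1, Gstm2, Gstm1 and Gstp1. Nr3c1, the targeted GR gene, fell 2.15-fold at 2 months, a log2 difference of -1.10 in cardioGRMRdKO against dflox hearts (SE 0.137, limma adjusted p = 0.00565). At 1 month Nr3c1 differed by -0.73 (limma adjusted p = 0.119), with only 2 usable hearts in each genotype. Nr3c2 was not analysed here. The arrays lay on 3 slides. Both genotypes were on slides 1 and 2 at 1 month and on slides 1 and 3 at 2 months. Only slide 1 held dflox hearts of both ages, so age and slide are only partly separable in dflox hearts. At 1 month every cardioGRMRdKO array had an inner place on its slide and every dflox array an outer one, so genotype and place cannot be told apart at that age. Markers of airway epithelium varied among hearts of the same group at 2 months, as described with Gsta3. At 1 month their mean level was -3.39 to -2.18 in cardioGRMRdKO and 0.47 to 1.52 in dflox hearts. Genotype and airway level therefore cannot be told apart at that age, and averages over both ages use these hearts too.

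At 2 months the 2 alpha-class genes Gsta1 and Gsta2, which encode alpha-class transferases that also reduce lipid peroxides, were higher than at 1 month in hearts of both genotypes. Gsta1 stood at 0.20, -0.19 and -0.41 in cardioGRMRdKO hearts and at 0.13, 0.35 and 0.20 in dflox hearts at 2 months. The 1-month levels were -1.68, -1.28 and -1.39 in cardioGRMRdKO hearts and -1.66, -1.14 and -1.37 in dflox hearts. All 6 hearts of 2 months were above all 6 hearts of 1 month, and within each age the genotypes overlapped.

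Gsta2 had levels of -1.59, -1.66 and -2.02 in cardioGRMRdKO hearts and -1.65, -0.98 and -1.44 in dflox hearts at 2 months. The 1-month levels of Gsta2 were -3.19, -3.06 and -3.34 in cardioGRMRdKO and -3.80, -2.65 and -3.31 in dflox hearts. Here too the ages did not overlap in either genotype and the genotypes overlapped at both ages. The difference between the ages was 1.32 (log2, SE 0.185) for Gsta1 and 1.44 (SE 0.271) for Gsta2 in cardioGRMRdKO hearts, or 2.49-fold and 2.71-fold. In dflox hearts it was 1.62 (SE 0.185) and 1.90 (SE 0.271), or 3.06-fold and 3.73-fold. With another background correction, normexp, the Gsta2 difference was smaller, at 0.91 in cardioGRMRdKO and 1.02 in dflox hearts, while the Gsta1 difference was 1.18 and 1.44.

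**Figure D1:**
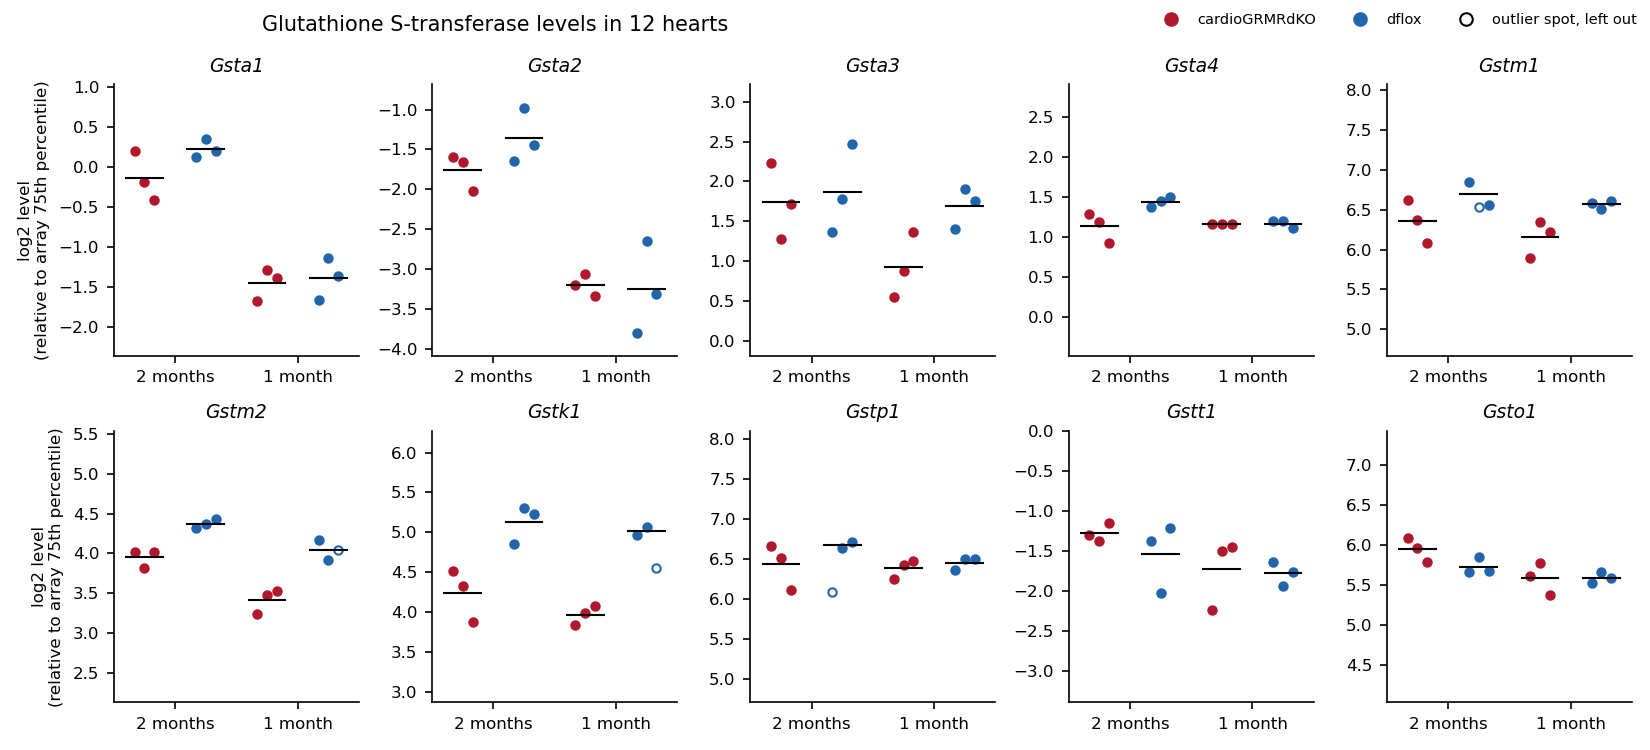
Level of each of the 10 transferase genes in each heart, in log2 units relative to the array's 75th percentile. Points are hearts, lines are group means, open points are outlier spots left out of the means, and every panel spans the same number of log2 units. Gsta1, Gsta2, Gstm2 and, by a very narrow margin, Gsto1 did not overlap between the ages in either genotype. Gstk1 and Gstm2 did not overlap between the genotypes at either age.

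For the other 8 genes the difference between the ages was under 1 log2 unit in both genotypes. In cardioGRMRdKO hearts it ran from -0.03 for Gsta4 to 0.81 for Gsta3 (SE 0.326), with Gstm2 at 0.54, Gstt1 at 0.45, Gsto1 at 0.36, Gstk1 at 0.27, Gstm1 at 0.20 and Gstp1 at 0.05. In dflox hearts it ran from 0.12 for Gstk1 to 0.33 for Gstm2. Within slide 1, the only one with dflox hearts of both ages, it was -0.10 for Gstk1 and -0.04 for Gsta3. The others of the 8 with a value there had 0.14 to 0.26. Each slide held 1 cardioGRMRdKO heart of each age. On slide 1 these hearts differed between the ages by -0.26 for Gstm1, -0.31 for Gstp1, -0.25 for Gsta4 and -0.12 for Gstk1. For these genes the difference was above 0 on slides 2 and 3. The rest of the 8 were above 0 on every slide. Gsta4, which clears the lipid peroxidation product 4-hydroxynonenal, thus had no higher average at 2 months in cardioGRMRdKO hearts, contrary to the way the set was chosen, at 1.14 ± 0.193 at 2 months and 1.17 ± 0.002 at 1 month (SD, n = 3 each). In dflox hearts Gsta4 averaged 1.44 ± 0.064 at 2 months and 1.17 ± 0.053 at 1 month (SD, n = 3 each), and the ages did not overlap.

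The hearts of the 2 ages did not overlap for 5 of the 10 genes in cardioGRMRdKO mice (Gsta1, Gsta2, Gstm2, Gstt1 and Gsto1) and for 6 in dflox mice (Gsta1, Gsta2, Gsta4, Gstm2, Gstp1 and Gsto1). Over all genes, 7.2% and 11.5% were higher at 2 months without overlap. In dflox mice the Gstp1 separation rests on 2 hearts of 2 months, and that of Gstm2 on 2 hearts of 1 month. The left-out outlier spot of Gstp1 read below every dflox heart of 1 month, so the ages would overlap with it. The ages were only just apart for Gsto1. Its highest level at 1 month was 5.663 in dflox and 5.78 in cardioGRMRdKO hearts. The lowest at 2 months was 5.665 in dflox and 5.79 in cardioGRMRdKO hearts. The limma fit called 1 gene higher in cardioGRMRdKO hearts (Gsta1), where 0.192% of all genes were called higher, and 2 in dflox hearts (Gsta1 and Gsta2), where 0.307% were. These counts describe genes chosen for this very difference. The median difference over the 10 genes was 0.41 in cardioGRMRdKO hearts, beside -0.02 over all genes, and 0.23 in dflox hearts, beside 0.05 over all genes. Scaling arrays by their median lowered all dflox differences by 0.14 at the median over genes, and 7 of the 10 genes were then above 0 in dflox hearts in place of all 10. The difference stayed above 0 in both genotypes under every alternative that gave a value for Gsta1, Gsta2 and Gstm2, and each of the other 7 genes changed sign under 1 to 4 alternatives in 1 or both genotypes.

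**Figure D2:**
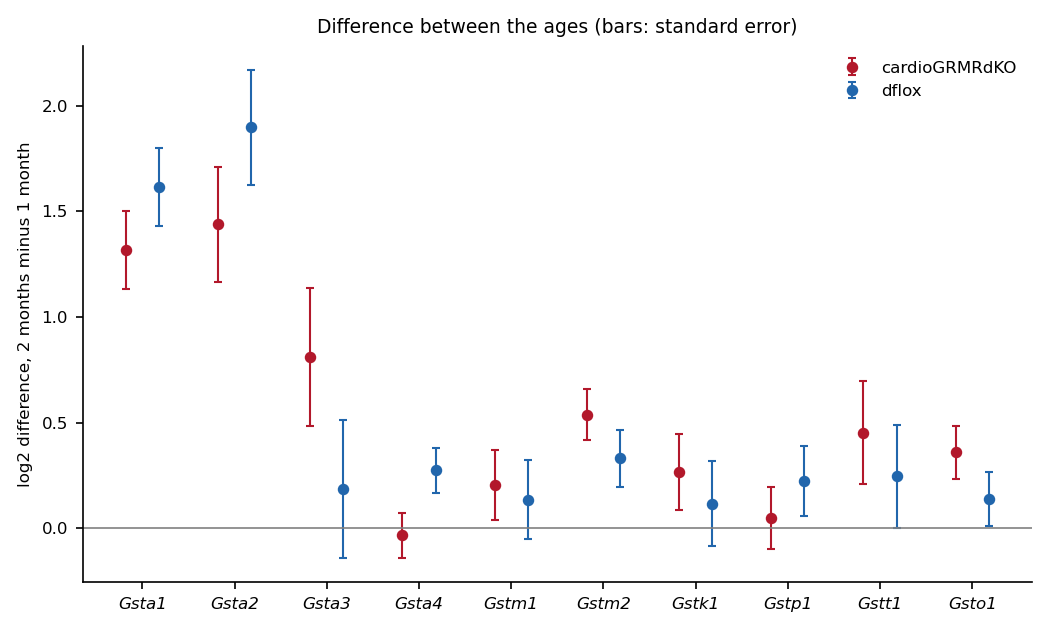
Difference in log2 level between 2 months and 1 month for each gene in cardioGRMRdKO and dflox hearts, with the standard error from limma. Gsta1 and Gsta2 stand at 1.32 to 1.90, and the other 8 genes between -0.03 and 0.81.

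The difference between the ages was set side by side in the 2 genotypes through the interaction term, which is a description for these genes, because both age differences it is made of chose them and bound what it can show. Over the 10 genes it ran from -0.46 for Gsta2 (95% interval -1.31 to 0.39) to 0.62 for Gsta3 (-0.40 to 1.65), so differences of over 1 log2 unit lay inside both intervals. Over all genes limma called 0 of 18258, with 644 at an unadjusted p under 0.05.

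Between the genotypes, Gstk1 was lower in cardioGRMRdKO hearts. Gstk1 encodes the kappa-class transferase of mitochondria and peroxisomes, and it fell 1.86-fold at 2 months. Its level was 4.51, 4.32 and 3.87 in cardioGRMRdKO hearts and 4.86, 5.30 and 5.23 in dflox hearts at 2 months. Hearts of 1 month had 3.84, 3.99 and 4.08 in cardioGRMRdKO hearts and 4.96 and 5.06 in the 2 dflox hearts with a usable spot. At both ages each cardioGRMRdKO heart lay below each dflox heart. The third dflox heart of 1 month, whose spot was marked as an outlier and left out of the fit, read 4.55 there, also above the 3 cardioGRMRdKO hearts of that age.

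The difference in Gstk1 was -0.89 at 2 months (log2, SE 0.18, 95% interval -1.30 to -0.49, limma adjusted p = 0.0381), which passed the threshold of 0.05. The 1-month difference was -1.04 (SE 0.202, 2.06-fold), which did not pass it (adjusted p = 0.0526). Averaged over both ages it was -0.97 (SE 0.135, adjusted p = 0.00374), or 1.96-fold. The cardioGRMRdKO hearts at 4.51 (2 months, slide 2) and 3.84 (1 month, slide 3) had no dflox heart of their age on the same slide. Within the other slides the difference was -0.98 and -0.94 at 2 months and -0.97 and -0.99 at 1 month. Each of these values sets 1 cardioGRMRdKO heart against 1 or 2 dflox hearts. The value was negative under all alternatives tried, from -1.03 to -0.66 at 2 months, while the call at 2 months held under 10 of 29 alternatives and that of the average under 25 of 28. The 2-month call was lost with arrays scaled by their median (adjusted p = 0.110) and when any 1 heart was left out other than dflox 1-month replicate 3, dflox 2-month replicate 1 or cardioGRMRdKO 2-month replicate 1 (adjusted p up to 0.139). The averaged call was lost only with place on the slide as a covariate (adjusted p = 0.0539), without slide 2 (0.110) and without slide 3 (0.133).

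Gstm2, a mu-class transferase known in humans as the muscle-type enzyme, was the second gene with a lower average. Its levels were 4.02, 3.82 and 4.02 in cardioGRMRdKO hearts and 4.32, 4.36 and 4.43 in dflox hearts at 2 months. The 1-month levels of Gstm2 were 3.24, 3.48 and 3.54 in cardioGRMRdKO hearts and 4.17 and 3.92 in the 2 dflox hearts with a usable spot, and the outlier spot of the third read 4.05. The genotypes did not overlap at either age. The difference was -0.42 at 2 months (SE 0.120, adjusted p = 0.138) and -0.62 at 1 month (SE 0.135, adjusted p = 0.0839), and neither passed the limma test, but the average over both ages fell 1.43-fold, by -0.52 on the log2 scale (SE 0.0904, adjusted p = 0.0112). Within slides, again with 1 cardioGRMRdKO heart against 1 or 2 dflox hearts, the difference was -0.30 and -0.58 at 2 months and -0.68 and -0.38 at 1 month. The call of the average was lost without dflox 1-month replicate 1 (adjusted p = 0.0598), without the arrays of any 1 slide, with arrays scaled by their median (adjusted p = 0.194), with place on the slide as a covariate (0.182) and without the 3 hearts of 2 months with a high airway signal described below (0.0794).

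In all, limma called 1 of the 10 genes lower at 2 months (1.21% of all genes were called lower) and 2 averaged over both ages (2.25% of all genes). At 1 month it called 0 lower (0.542% of all genes), and 4 of the 10 had an unadjusted p under 0.05, beside 1716 of 18258 genes. None of the 10 was called higher, where 1.1% of all genes were at 2 months, 0.438% at 1 month and 2.25% on average. Hearts of the genotypes did not overlap for 3 of the 10 genes at 2 months (Gsta4, Gstm2 and Gstk1) and for 4 at 1 month (Gsta3, Gstm1, Gstm2 and Gstk1), all of them lower in cardioGRMRdKO hearts, where 11.1% and 9.83% of all genes were lower without overlap. The median difference over the 10 genes was -0.33 at 2 months and -0.07 at 1 month, beside -0.10 and 0.00 over all genes. Below 0 were 8 of the 10 genes at 2 months, beside 11499 of 18258 genes in all. At 1 month they were 8 of 10, beside 9184 of 18258, but these include Gsta4 and Gsto1 at under 0.01 from 0, and the count was 6 with quantile normalization or median scaling and 9 with normexp.

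**Figure D3:**
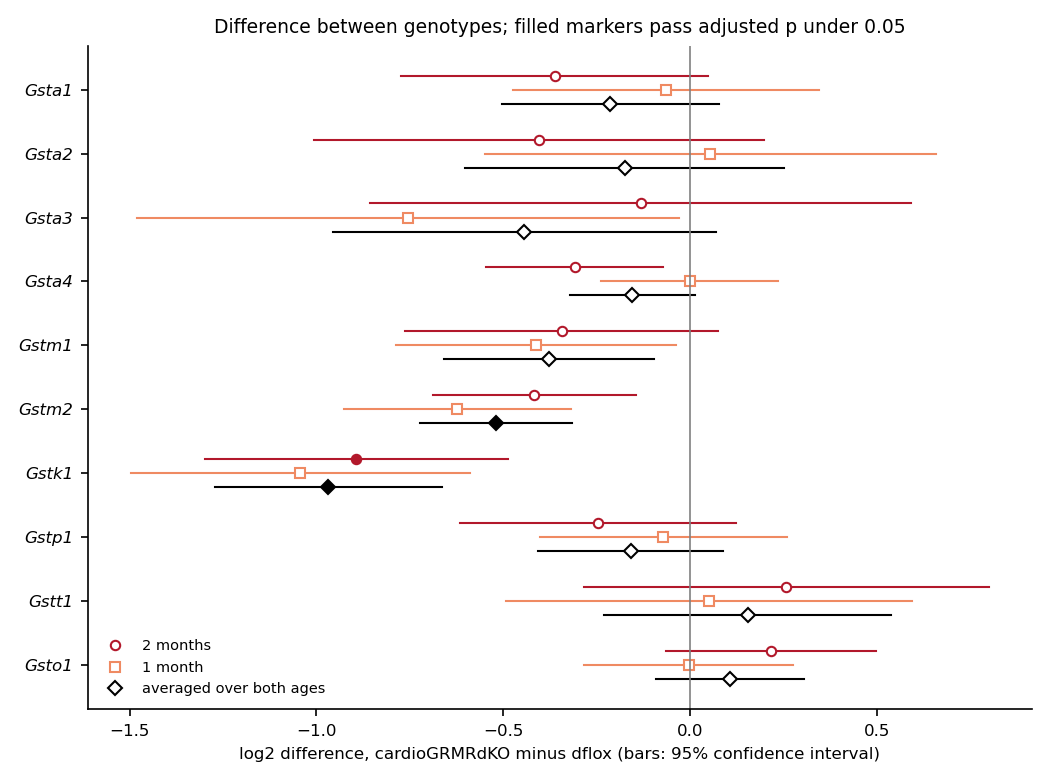
Difference in log2 level, cardioGRMRdKO minus dflox, for each gene at 2 months, at 1 month and averaged over both ages, with the 95% confidence interval from limma. Filled markers have an adjusted p under 0.05 over all genes: Gstk1 at 2 months, and Gstk1 and Gstm2 on average.

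Gstm1, a mu-class transferase of broad substrate range, averaged lower in cardioGRMRdKO hearts without passing the test. On its brighter probe it read 6.62, 6.37 and 6.08 in cardioGRMRdKO hearts and 6.84 and 6.56 in the 2 usable dflox hearts at 2 months. Hearts of 1 month gave 5.89, 6.34 and 6.22 in cardioGRMRdKO hearts and 6.58, 6.51 and 6.61 in dflox hearts. The groups overlapped at 2 months, where 1 cardioGRMRdKO heart lay above 1 dflox heart, and did not at 1 month. The difference was -0.34 at 2 months (SE 0.186, limma adjusted p = 0.394) and -0.41 at 1 month (SE 0.166, adjusted p = 0.458). The dimmer Gstm1 probe gave -0.38 and -0.45 at the same ages.

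Gsta3, an alpha-class transferase known from mouse liver and lung, had an uneven pattern. At 2 months its brighter probe read 2.23, 1.28 and 1.71 in cardioGRMRdKO hearts and 1.36, 1.78 and 2.47 in dflox hearts. The 1-month readings were 0.56, 0.88 and 1.36 in cardioGRMRdKO hearts and 1.40, 1.90 and 1.75 in dflox hearts. The genotypes overlapped at 2 months and were just apart at 1 month. The difference was -0.13 at 2 months (SE 0.326, limma adjusted p = 0.849) and -0.75 at 1 month (adjusted p = 0.495). The dimmer Gsta3 probe gave 0.04 and -0.74.

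Airway epithelium markers varied from heart to heart. Of 20 listed markers, 17 were among the genes fitted and 16 had a value on every array. The mean level of these 16 was 1.5, -3.51 and 1.52 in cardioGRMRdKO and -1.82, -3.42 and 1.79 in dflox hearts at 2 months. At 1 month it was -2.18, -2.89 and -3.39 in cardioGRMRdKO and 0.47, 1.51 and 1.52 in dflox hearts. Thus 3 hearts of 2 months, 2 of them cardioGRMRdKO, and all 3 dflox hearts of 1 month had a mean above 0, and in the 6 others 13 to 16 of the 16 markers were still well above background. Within none of the 4 groups did the order of the 3 Gsta3 levels match the order of the airway means, and among cardioGRMRdKO hearts of 1 month it was the opposite. In cardioGRMRdKO hearts of 2 months and dflox hearts of 1 month the 2 highest airway means were nearly equal, and the heart with the lowest one also had the lowest Gsta3 level. Among dflox hearts of 2 months the one with the highest airway mean also had the highest Gsta3 level. Across groups, Gsta3 ran from 1.40 to 2.47 in the 6 hearts with an airway mean above 0 and from 0.56 to 1.78 in the 6 others. The part of airway tissue in Gsta3 was not tested. The ciliated cell gene Foxj1 was well above background in the 6 hearts with an airway mean above 0 and in none of the others. The club cell gene Scgb1a1, well above background in all 12, ranged from -1.49 to 5.63.

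Without the 3 such hearts of 2 months, an alternative chosen after seeing the data, the Gsta3 difference between the ages was 0.35 in cardioGRMRdKO and -0.12 in dflox hearts. The corresponding Gsta1 values were 1.26 and 1.63, and those of Gsta2 were 1.54 and 1.94. The genotype difference of Gstk1 at 2 months was -0.76 without these hearts (adjusted p = 0.389). In the same comparison that of Gstm2 was -0.52 (adjusted p = 0.543). This leaves 1 cardioGRMRdKO heart of 2 months, which the fit assumes to vary like the other groups. With the airway mean as a covariate in all 12 hearts, Gstk1 gave -0.88 at 2 months (adjusted p = 0.0709) and -0.99 on average (adjusted p = 0.0125). Mean levels of lung alveolus, liver, adipose, thymus and T cell, and red cell markers overlapped between the genotypes at 1 month. The remaining marker lists, like that of the airway, were apart at that age. Their mean level was lower without overlap in cardioGRMRdKO hearts for markers of cartilage (-2.47 to -2.03, against -1.29 to -0.55 in dflox hearts), fibroblasts (3.28 to 3.36, against 3.41 to 3.62), endothelium (2.40 to 2.49, against 2.52 to 2.62), smooth muscle (3.1 to 3.2, against 3.30 to 3.56), epicardium (-1.28 to -0.70, against -0.48 to -0.39) and cardiomyocytes (6.86 to 7.18, against 7.21 to 7.28). Macrophage markers were higher without overlap, at 1.52 to 1.59 in cardioGRMRdKO and 1.21 to 1.42 in dflox hearts at 1 month and at 1.32 to 1.46 and 1.12 to 1.24 at 2 months. An unadjusted limma p under 0.05 at 1 month was found for 5 of 8 cartilage, 1 of 10 fibroblast and 0 of 10 endothelial genes. It was found for 5 of 8 smooth muscle, 2 of 8 epicardial, 2 of 12 cardiomyocyte and 3 of 13 macrophage genes, beside 1716 of 18258 in all. At 2 months the cardiomyocyte means, 6.76 to 7.24 in cardioGRMRdKO and 7.17 to 7.25 in dflox hearts, overlapped. The cartilage, fibroblast, endothelial, smooth muscle and epicardial means overlapped at that age too. The part of other cells in these results was not tested, and fewer cells of a type and less RNA per cell cannot be told apart in whole hearts.

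**Figure D4:**
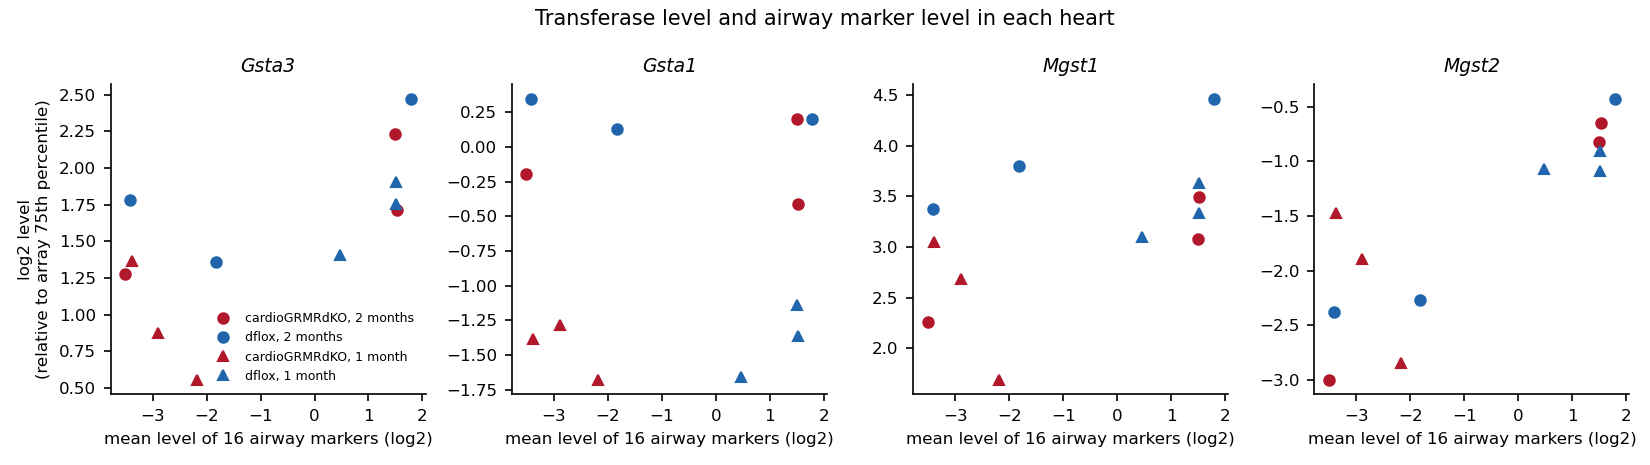
Level of Gsta3, Gsta1, Mgst1 and Mgst2 in each heart against the mean level of 16 airway epithelium markers in the same heart, both in log2 units. Circles are hearts of 2 months and triangles hearts of 1 month. The 6 hearts with an airway mean above 0 held the 6 highest Mgst2 levels, whereas Gsta1 separated by age.

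None of the other members passed the test between the genotypes. Gsta4 averaged 1.14 ± 0.193 in cardioGRMRdKO and 1.44 ± 0.064 in dflox hearts at 2 months (SD, n = 3 each), without overlap, but the difference of -0.31 (SE 0.106) did not pass the limma test (adjusted p = 0.207). Its difference at 1 month was under 0.01. Gstp1, the pi-class enzyme and the main transferase of many tissues, read 6.67, 6.52 and 6.11 in cardioGRMRdKO and 6.64 and 6.72 in the 2 usable dflox hearts at 2 months on its brighter probe. The groups overlapped, with a difference of -0.25 (SE 0.164, adjusted p = 0.477), and the outlier spot of the third dflox heart read 6.09, below all of them. The dimmer Gstp1 probe, which lists no Gstp2 transcript, gave 0.08 at 2 months and 0.16 at 1 month, against -0.25 and -0.07 for the brighter one. The 2 probes thus differed in sign at both ages, and none of these values passed the test.

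Gsto1, the omega-class enzyme that reduces dehydroascorbate and arsenic species, averaged 5.95 ± 0.151 in cardioGRMRdKO and 5.73 ± 0.104 in dflox hearts at 2 months (SD, n = 3 each). Its averages at 1 month were 5.59 ± 0.204 and 5.59 ± 0.068. Gstt1, the theta-class enzyme acting on small halogenated compounds, averaged -1.28 ± 0.112 in cardioGRMRdKO and -1.53 ± 0.428 in dflox hearts at 2 months, and -1.73 ± 0.442 and -1.78 ± 0.155 at 1 month. For both genes the genotypes overlapped at each age. The 2-month difference was 0.22 for Gsto1 (95% interval -0.06 to 0.50) and 0.26 for Gstt1 (-0.28 to 0.80). Gsta1 and Gsta2 had genotype differences of -0.36 (95% interval -0.77 to 0.05) and -0.40 (-1.01 to 0.20) at 2 months and of -0.06 and 0.05 at 1 month, and none passed the test.

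Of 19 other glutathione transferases and related membrane enzymes listed, 15 were among the genes fitted, and 3 of them were lower in cardioGRMRdKO hearts. At 2 months limma called Gstm3, Gstm7 and Mgst3, all lower, and these 3 were also the ones called on average. Of all genes, 1.21% were called lower at 2 months and 2.25% on average. At 1 month limma called 0 of the 15, of which 3 had an unadjusted p under 0.05, beside 1716 of 18258 genes in all. Gstm3, another mu-class gene, read 5.54, 5.43 and 5.24 in cardioGRMRdKO hearts and 5.97, 5.91 and 6.02 in dflox hearts at 2 months. At 1 month it read 5.0, 5.21 and 5.10 in cardioGRMRdKO hearts and 5.53, 5.67 and 5.46 in dflox hearts. It fell 1.48-fold at 2 months (-0.57, SE 0.109, adjusted p = 0.0243) and 1.42-fold on average (adjusted p = 0.00404). Its probe (chromosome 3, 107782100 to 107782159, mm7) lies in the same stretch of chromosome 3 as those of Gstm1, Gstm2 and Gstm7.

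Gstm7, also of the mu class (chromosome 3, 107745008 to 107745067), read -0.64, -0.70 and -0.33 in cardioGRMRdKO and 0.28, -0.02 and 0.08 in dflox hearts at 2 months. In the younger mice it read -0.47, -0.72 and -0.68 in cardioGRMRdKO and -0.08, 0.03 and 0.31 in dflox hearts. The genotypes were apart at both ages. Gstm7 fell 1.59-fold at 2 months (-0.67, SE 0.146, adjusted p = 0.0441) and 1.61-fold on average (-0.69, adjusted p = 0.0038). Its second, dimmer probe gave -0.55 at 2 months and -0.68 at 1 month.

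Mgst3, a membrane-bound enzyme with peroxidase activity and a role in leukotriene synthesis, read 4.09, 3.96 and 3.85 in cardioGRMRdKO and 4.78, 4.56 and 4.41 in dflox hearts at 2 months. It fell 1.53-fold at that age (-0.62, SE 0.113, adjusted p = 0.0194) and 1.37-fold on average (adjusted p = 0.00926). The difference at 1 month was -0.29 (adjusted p = 0.409). The second Mgst3 probe gave -0.71 and the dimmest -0.47 at 2 months, and the dimmest was higher by 0.24 at 1 month. The averaged call held under 24 of 28 alternatives for Gstm3, 25 for Gstm7 and 24 for Mgst3. The 2-month call held under 15 of 29 alternatives for Gstm3, 7 for Gstm7 and 17 for Mgst3.

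**Figure D5:**
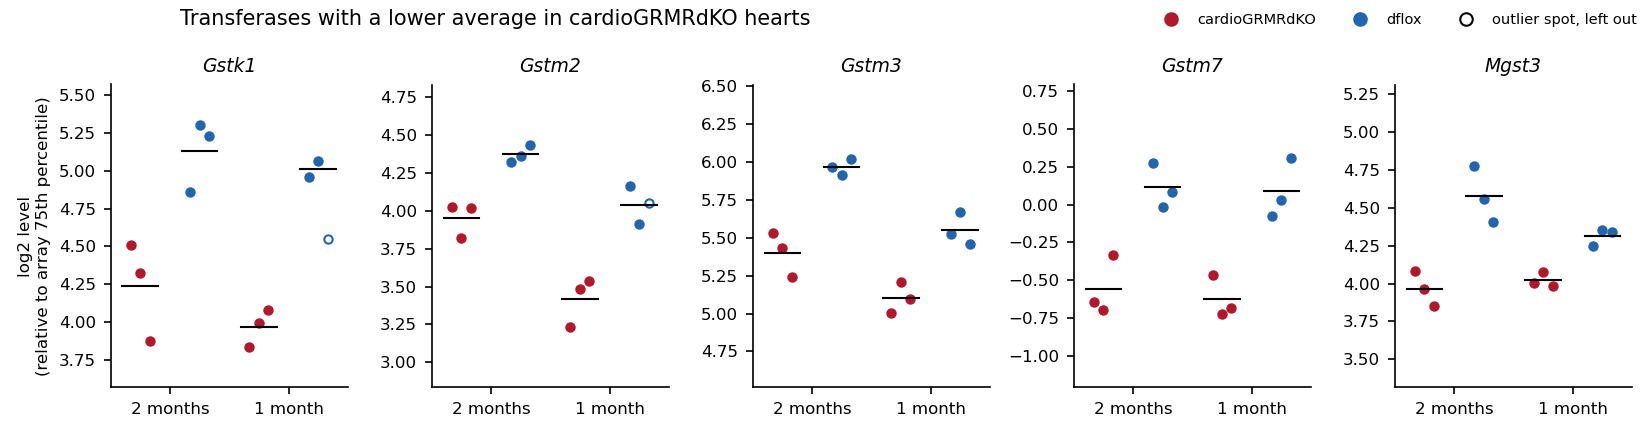
Level of the 5 transferase genes called lower in cardioGRMRdKO hearts on average, in each heart, in log2 units relative to the array's 75th percentile. For each gene the 3 cardioGRMRdKO hearts lie below the dflox hearts at both ages.

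The other listed transferases did not pass the test at either age. Mgst1, which detoxifies lipid hydroperoxides in the endoplasmic reticulum and mitochondria, differed by -0.94 at 2 months (SE 0.413, adjusted p = 0.308) and -0.88 at 1 month (adjusted p = 0.568). Its levels at 2 months were 3.07, 2.26 and 3.49 in cardioGRMRdKO and 3.80, 3.38 and 4.47 in dflox hearts, and the spread within a genotype was as large as the difference. In both genotypes at 2 months and in dflox hearts of 1 month the Mgst1 levels had the order of the airway means. Among cardioGRMRdKO hearts of 1 month the order was the opposite. Under the alternatives the 1-month difference ran from -1.17 to -0.175. The part of airway tissue in Mgst1 was not tested. Mgst2, a related membrane enzyme, read -0.83, -3.00 and -0.65 in cardioGRMRdKO and -2.27, -2.38 and -0.43 in dflox hearts at 2 months. The 1-month levels of Mgst2 were -2.85, -1.89 and -1.47 in cardioGRMRdKO and -1.07, -1.09 and -0.90 in dflox hearts. The 6 highest of these levels were those of the 6 hearts with an airway mean above 0, and the part of airway tissue in them was not tested. Gstm6, which was not among the chosen genes, was higher at 2 months than at 1 month by 0.71 in cardioGRMRdKO hearts (SE 0.142, limma adjusted p = 0.074) and by 0.70 in dflox hearts (adjusted p = 0.0615), more than 8 of the 10 members in dflox hearts. With normexp these Gstm6 differences were 0.42 and 0.53.

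Genes around the transferases were read beside all genes, of which 2853 of 18258 at 2 months, 1716 at 1 month and 3210 on average had an unadjusted p under 0.05, and 2.25% were called higher and 2.25% lower on average. Of 26 fitted genes of glutathione synthesis, breakdown and recycling, limma called 0 at either age (3 at 2 months and 4 at 1 month had an unadjusted p under 0.05) and 1 on average, Ggact, a gamma-glutamylamine cyclotransferase, which was 1.23-fold higher (0.30, SE 0.074, adjusted p = 0.0495). Chac1, which degrades glutathione, differed by -0.17 at 2 months and -0.83 at 1 month (adjusted p = 0.246). Of 24 glutathione peroxidases, peroxiredoxins and related antioxidant enzymes 0 were called in a genotype comparison, with 5 at 2 months and 0 at 1 month at an unadjusted p under 0.05. Catalase (Cat) differed by 0.56 at 2 months (adjusted p = 0.3) and superoxide dismutase 2 (Sod2) by -0.45 (adjusted p = 0.265).

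Among 29 regulators and induced genes of Nrf2, 0 were called in a genotype comparison, and their median difference was -0.05 at 2 months and 0.00 at 1 month, with 5 and 1 genes at an unadjusted p under 0.05. The epoxide hydrolase Ephx1 differed by 0.63 at 2 months (adjusted p = 0.17) and Bach1, a repressor of Nrf2 targets, by -0.59 (adjusted p = 0.109). Of 22 other enzymes of drug metabolism, limma called 1 on average, the cytochrome P450 gene Cyp4b1, which was 1.41-fold lower (-0.49, SE 0.107, adjusted p = 0.0284), and 0 at either age. The Ggact call held under 4 of 28 alternatives and the Cyp4b1 call under 11. Of 9 fitted transporters that export glutathione conjugates 0 were called, with 0 at 2 months and 1 at 1 month at an unadjusted p under 0.05. Abcc4 differed by 0.53 at 1 month (adjusted p = 0.288).

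The 6 members with a usable value on every array (Gsta1 to Gsta4, Gstt1 and Gsto1) were standardised and averaged into 1 profile over the 12 hearts. The profile ran from 0.12 to 1.08 at 2 months and from -1.13 to -0.29 at 1 month, a separation that the choice of members fixes. Its Pearson correlation with the members that built it was 0.97 for Gsta1, 0.92 for Gsta2, 0.72 for Gsta3, 0.68 for Gsto1, 0.59 for Gsta4 and 0.54 for Gstt1. Outside the set, the genes most like it over the 12 hearts were the opioid precursor gene Penk (r = 0.97), Ociad2, the skeletal muscle calcium channel gene Cacna1s and the aldehyde oxidase gene Aox1 (0.95 each), followed by LOC629091, Prune2, Synpo2, Syt11, Xirp2 and Exoc3l2 (0.92 to 0.93). These correlations were picked as the highest over all genes with 12 values, the hearts share the 2 age groups, and no test is attached to them.

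The promoters of Gsta1 and Gsta2 are shown because these 2 genes stood apart from the other members between the ages. Both are the 250 bases before the RefSeq gene start on GRCm38.p6, at chr9:78230419-78230668 on the plus strand for Gsta1 and chr9:78347146-78347395 on the minus strand for Gsta2. Capitals mark their longest shared run, 29 bases whose first base lies 118 bases before the Gsta1 start and 121 bases before the Gsta2 start.
Gsta1 promoter: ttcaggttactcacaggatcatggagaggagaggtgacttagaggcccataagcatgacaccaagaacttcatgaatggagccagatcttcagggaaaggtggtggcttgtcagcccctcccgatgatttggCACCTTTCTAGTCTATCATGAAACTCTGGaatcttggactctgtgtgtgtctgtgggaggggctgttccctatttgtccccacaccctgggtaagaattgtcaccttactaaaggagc
Gsta2 promoter: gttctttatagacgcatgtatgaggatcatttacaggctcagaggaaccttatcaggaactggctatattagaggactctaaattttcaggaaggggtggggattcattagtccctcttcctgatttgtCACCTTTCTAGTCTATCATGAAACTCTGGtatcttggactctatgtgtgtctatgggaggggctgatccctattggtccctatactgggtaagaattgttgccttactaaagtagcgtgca
Aligned end to end they were identical at 184 of 261 columns (70.5%), and the next most alike pair among the 9 members with a promoter entry, Gstm1 and Gstp1, reached 52.6%. Searched on both strands of these 250 bases, the core of the antioxidant response element, TGACNNNGC, was found in 1 of the 9 members, Gsta3, and in 10.2% of 32851 promoters. The full glucocorticoid response element, AGAACA followed after 3 bases by its own reverse complement, was found in none of the 9 and in 0.00913% of all promoters. AGAACA by itself, which overlaps the full element, was found in Gstm1 alone among the 9 and in 16.1% of all promoters. A match describes letters in this window and not binding, and no match says nothing of elements elsewhere.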

How the data were processed

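Gene expression was measured on 12 one-colour Agilent whole mouse genome arrays, 1 per heart. Per the file headers and the submitters' processing notes, the arrays were read with Agilent Feature Extraction 9.5, and the deposited processed signal is a linear intensity after the software's own background subtraction. The deposited series matrix holds the same values, so the arrays were not yet scaled to each other. The software's flags for outlier spots, saturation and signal well above background, deposited in the same files as 0 or 1, were used as filters. Control and outlier spots were left out, log2 was taken and each array's 75th percentile subtracted. Of 41174 probes, 26979 were kept because 1 or more groups had them well above background in all 3 hearts, and the brightest kept probe stood for a gene. Gene names follow RefSeq through the accessions in the files.

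A linear model of the 4 group means was fitted to 18258 genes with limma 3.58.1 (R 4.3.3), with 8 residual and 2.23 prior degrees of freedom, two-sided tests and Benjamini-Hochberg adjustment over all genes. A gene was called at an adjusted p under 0.05. The code was tested on simulated data. An exact permutation test of 3 against 3 hearts could not reach that threshold. The number of arrays limits the precision. Per the series' design text each heart is of its own mouse, and same-numbered hearts are not paired.

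The members and gene lists were chosen with earlier results of these data known, and the list of airway markers was made after the arrays had been looked at. Named genes are the members, other transferases, up to 4 genes of each further list with the smallest genotype p, any called gene of those lists, Nr3c1 and the 10 genes most like the members' profile. Promoters are RefSeq's (GRCm38.p6), compared with Biopython 1.88. Alternatives covered background correction, scaling, filters, probes, slide, place, airway level, replicate number and leaving out slides or hearts.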

Additional observations from a re-analysis of the deposited data

How the results depend on the processing

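Counts of the 10 members called moved with the processing. Between the genotypes at 2 months the count of 1 became 0 with median scaling, no filter, place as a covariate, airway level as a covariate, the replicate block, only the groups compared, without slide 1, 2 or 3 and without the 3 hearts of 2 months with a positive airway mean, which leaves 1 cardioGRMRdKO heart of that age. At 1 month the count of 0 became 1 with quantile normalization, the stricter filter, slide as a fixed or random block, outlier spots kept, only the groups compared and without those 3 hearts. The averaged count of 2 became 1 with median scaling, without slide 1 and without those 3 hearts, and 0 with place as a covariate and without slide 2 or 3. For the ages the cardioGRMRdKO count of 1 became 2 with the stricter filter and 0 with median scaling, no filter, place, airway level, the replicate block, only the groups compared, without slide 1, 2 or 3 and without those 3 hearts. The dflox count of 2 became 1 with no filter, slide as a fixed block, place, airway level and without those 3 hearts, and 0 without slide 1, 2 or 3 and with only the groups compared. Leaving out 1 heart in turn gave 0 to 1 at 2 months, 0 to 1 at 1 month, 1 to 2 averaged, 0 to 2 for age in cardioGRMRdKO and 0 to 2 for age in dflox hearts. The interaction count was 0 under every alternative. The replicate block, with numbers that only name hearts, left Gstk1 at -0.89 at 2 months (limma adjusted p = 0.0869). Fewer samples enter where hearts or slides are left out, and the cause of the other changes was not tested.

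Genotype differences that changed sign were all of values that had not passed the test. At 1 month Gsta1 (-0.06) became 0.044 with slide as a fixed block, 0.177 without slide 2, 0.051 without slide 3 and -0.199 to 0.061 without 1 heart. Gsta2 (0.05) became -0.097 with normexp, -0.04 with airway level, -0.287 without slide 1 and -0.218 to 0.355 without 1 heart, and its average became 0.092 without slide 2. Gsta4 became 0.046 with normexp, 0.021 with quantile normalization, 0.018 with median scaling, 0.017 without slide 1 and -0.031 to 0.016 without 1 heart. Gsto1 became 0.035 with quantile normalization, 0.015 with median scaling, 0.17 without slide 2 and -0.099 to 0.104 without 1 heart, and Gstt1 -0.039 with normexp, -0.238 without slide 2 and -0.09 to 0.306 without 1 heart. Gsta3 at 2 months became 0.61 without slide 3 and -0.387 to 0.169 without 1 heart, and its average 0.022 without slide 3. With the mean of a gene's probes Gstm1 became 0.265 at 2 months, and Gstp1 0.31 at 2 months, 0.046 at 1 month and 0.178 averaged. At 2 months a dflox heart whose brighter spot was left out then rests on the dimmer probe alone, whereas at 1 month the Gstp1 value is the mean of its 2 probes, which differ in sign. Mgst2 at 1 month became 0.014 with place and 0.476 with airway level. At 2 months it became -0.181 with slide as a fixed block, -0.18 with airway level, -0.511 without slide 1, -0.136 without slide 2, -0.678 without the 3 hearts and -0.223 to 0.953 without 1 heart. Its average became 0.283 with place, 0.148 with airway level and 0.435 without slide 3. Gstp1 had no value without slide 3 at 2 months.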
